A study of Mus musculus with 18 samples.

Results

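Metallothioneins are small, cysteine-rich proteins that bind zinc and copper, and their genes are switched on when free zinc in a cell rises. The 4 genes described here belong to that system, and they were chosen by name: Mt1 and Mt2, which encode the metallothioneins found in most mouse tissues, Mtf1, which encodes the zinc-sensing transcription factor that drives them, and Slc30a1, which encodes ZnT1, the zinc exporter of the plasma membrane. The choice was made with earlier results of these data known. All 4 were among the 18668 genes of the deposited table, and all 4 were among the 12838 genes with enough signal to test. MTF1 takes up zinc through its zinc fingers, moves to the nucleus and binds short metal response elements near the start of Mt1, Mt2 and Slc30a1. Metallothioneins then hold the metal inside the cell, while ZnT1 sends it out. Metallothionein genes are also known to respond to glucocorticoids, oxidants and inflammatory stimuli.

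RNA was measured in bone marrow-derived macrophages (BMDM), that is, marrow cells of C57BL6 background mice grown into macrophages with M-CSF. The cells lacked Apoe (Apoe-/-) or both Apoe and Treml4 (Apoe-/-/Treml4-/-, abbreviated DKO), so that every group, controls included, carried the Apoe deletion, and no wild-type cells were compared. Each genotype was left untreated or was given oxidized low-density lipoprotein (oxLDL), the oxidized lipoprotein that turns macrophages of the arterial wall into foam cells. The amounts were 10 µg/ml (oxLDL 10) and 60 µg/ml (oxLDL 60), and 3 biological replicates in each of the 6 groups made 18 libraries. Age and sex of the mice are not given in the labels, the sources disagree on the hours of exposure, and a treatment remark naming LPS was not resolved.

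The labels and the cells were checked first. Treml4 lay between 1.86 and 8.39 RPKM (read counts divided by transcript length and by library size) in the Apoe-/- libraries and at 0 to 0.012 RPKM in the DKO libraries, and residual Apoe transcripts lay between 0.349 and 4.13 RPKM in all 18. All 7 macrophage markers averaged at least 1 RPKM, and their summed level was 1580 to 2286 RPKM per library. Neutrophil and precursor markers summed to 29.1 to 80.2 RPKM, and 5 of the 6 averaged at least 1 RPKM, led by S100a9 (22.1 RPKM) and S100a8 (16.0 RPKM), while Ly6g had no more than 0.026 RPKM. Fibroblast markers summed to 0.228 to 6.70 RPKM, with 1 of 4 averaging 1 RPKM, and endothelial markers to 2.44 to 4.42 RPKM, with 1 of 3 (Kdr, 3.10 RPKM). No marker of dendritic cells, lymphocytes or erythroid cells averaged 1 RPKM. Xist was at 7.25 to 14.5 RPKM in the 3 libraries of Apoe-/- replicate 2 and the 3 of DKO replicate 3, whereas the other 12 had at most 0.069 RPKM. These 6 libraries are called Xist-positive here, and since 1 animal of each genotype gave them, Xist status and animal cannot be told apart. Depth recovered from the table was 39.7 to 54.2 M reads per library.

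In the mouse genome (GRCm38) Mt1 lies at chr8:94179082-94180327 and Mt2 at chr8:94172664-94173568, both on the plus strand, with 5513 bases between them. Mtf1 spans chr4:124802104-124849800 and Slc30a1 spans chr1:191906767-191913247, also on the plus strand. The promoter windows of both metallothioneins and of Slc30a1 are printed because MTF1 is known to act through sites near the starts of such genes. Each is 300 bases of RefSeq sequence (GRCm38.p6, plus strand, 5′ to 3′), from 250 bases before the annotated start of transcription to 50 after it. Capitals mark the core of the metal response element, searched on both strands as TGCACNC or TGCGCNC.
Mt1 (chr8:94178839-94179138): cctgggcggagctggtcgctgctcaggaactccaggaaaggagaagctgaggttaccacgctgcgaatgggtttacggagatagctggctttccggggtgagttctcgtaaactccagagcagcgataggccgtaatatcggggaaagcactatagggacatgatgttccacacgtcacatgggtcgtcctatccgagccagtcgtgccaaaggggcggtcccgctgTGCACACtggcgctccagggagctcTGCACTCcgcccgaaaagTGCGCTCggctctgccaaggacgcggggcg
Mt2 (chr8:94172368-94172667): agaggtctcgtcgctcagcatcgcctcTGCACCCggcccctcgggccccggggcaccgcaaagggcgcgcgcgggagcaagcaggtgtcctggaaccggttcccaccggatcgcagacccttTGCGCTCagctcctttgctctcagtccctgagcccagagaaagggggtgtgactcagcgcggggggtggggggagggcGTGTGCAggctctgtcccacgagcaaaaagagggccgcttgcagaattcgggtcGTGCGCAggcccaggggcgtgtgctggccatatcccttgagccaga
Slc30a1 (chr1:191906531-191906830): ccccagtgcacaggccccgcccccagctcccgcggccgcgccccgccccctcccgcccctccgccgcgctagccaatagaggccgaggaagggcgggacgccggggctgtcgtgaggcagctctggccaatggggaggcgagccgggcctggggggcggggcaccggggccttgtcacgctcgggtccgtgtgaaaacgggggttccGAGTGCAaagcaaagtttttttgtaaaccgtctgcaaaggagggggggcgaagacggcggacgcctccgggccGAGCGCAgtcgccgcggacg

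The Mt2 window held 4 such cores, and 0.517% of 32851 RefSeq promoter windows of this length held as many or more. Mt1 had 3 (1.97% of windows with at least 3) and Slc30a1 had 2 (7.11% with at least 2). Mtf1 had none, where 25.7% of windows had at least 1. With 0 for the first transcribed base, the cores of Mt1 began at -23, 2 and 20, close around the start, while those of Mt2 began at -223, -128, -50 and 4. In Slc30a1 they began at -43 and 30, both on the minus strand. The antioxidant response element, the site of NRF2, was searched on both strands by its core TGACNNNGC. It occurred 1 time in Mt2, at -79, and 1 time in Slc30a1, at -82, and 12.4% of all windows held at least 1. It was not found in the windows of Mt1 and Mtf1, and no match of one motif overlapped a match of the other. The windows follow 1 RefSeq start for each gene, and the positions depend on that choice. GENCODE starts the longest Mt2 transcript 3 bases before the end of the Mt2 window, where the RefSeq start lies 50 bases before it. It also places shorter transcripts beyond the windows, 2 of Mt1 by 73 and 103 bases, 1 of Mt2 by 193 and 1 of Slc30a1 by 426, so that sequence just before those starts was not searched. A match of letters describes the window and does not show binding.

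The 4 genes stood at very different levels. Mt1 averaged 103 RPKM over the 18 libraries, higher than 95.8% of the genes tested. Mt2 averaged 6.49 RPKM and Slc30a1 6.44 RPKM, both near the middle of the genes tested, and Mtf1 averaged 3.16 RPKM. The spread also differed, since the highest library exceeded the lowest by 1.28 times for Mtf1, 1.53 times for Mt1, 2.30 times for Slc30a1 and 4.11 times for Mt2. Only Slc30a1 changed with oxLDL by the test used, and no member was called between the genotypes. A gene was called when its limma p, adjusted by Benjamini-Hochberg over all 12838 genes, was under 0.05 and its fold change was at least 1.4. Fold changes are differences on the scale of log2(RPKM + 0.1). These are bulk samples, so that fewer cells making a transcript and less transcript per cell cannot be told apart.

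**Figure D1:**
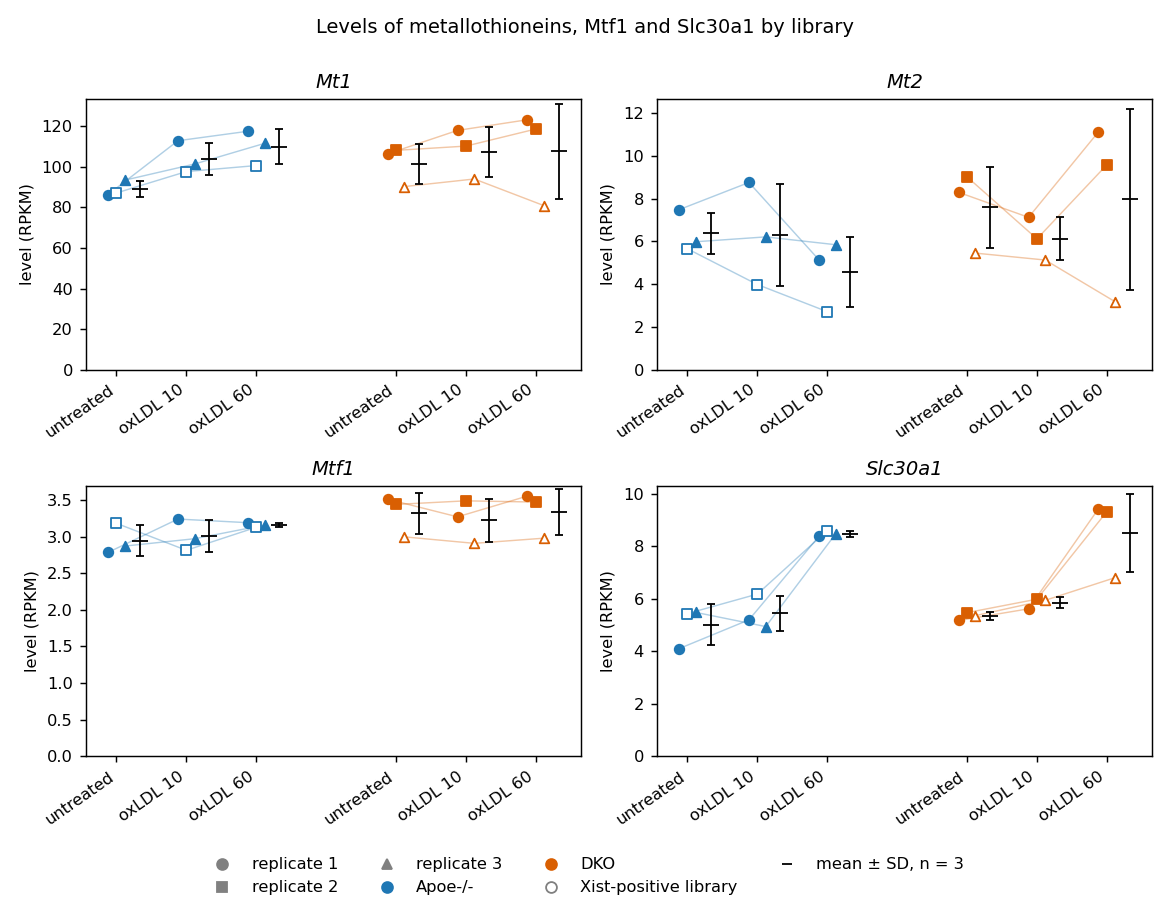
Level (RPKM, linear axis from 0) of Mt1, Mt2, Mtf1 and Slc30a1 in each library, by genotype (blue Apoe-/-, orange DKO) and treatment. Symbols mark replicate numbers, lines join the libraries of 1 animal, open symbols are Xist-positive libraries, and black bars are mean ± SD (n = 3). Slc30a1 is above both other treatments in every oxLDL 60 library, and Mt2 is lowest in the Xist-positive library of all 6 groups.

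Slc30a1, the exporter, rose with the high amount of oxLDL in both genotypes. In Apoe-/- cells its level was 4.10, 5.44 and 5.48 RPKM in untreated replicates 1 to 3, 5.20, 6.18 and 4.94 RPKM with oxLDL 10, and 8.38, 8.60 and 8.47 RPKM with oxLDL 60. All 3 oxLDL 60 libraries lay above every other Apoe-/- library, while untreated and oxLDL 10 libraries overlapped. In DKO cells it was 5.17, 5.47 and 5.36 RPKM untreated, 5.62, 5.99 and 5.94 RPKM with oxLDL 10, and 9.43, 9.32 and 6.81 RPKM with oxLDL 60. Here no treatment overlapped another, although oxLDL 60 replicate 3, an Xist-positive library, stood well below its group.

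The means of Slc30a1 went from 5.01 ± 0.78 RPKM (SD, n = 3) in untreated Apoe-/- cells to 8.48 ± 0.11 RPKM with oxLDL 60, a ratio of 1.69. The log2 fold change was 0.76 (SE 0.12, 95% interval 0.50 to 1.02, limma adjusted p = 0.000135). In DKO cells the means went from 5.34 ± 0.15 to 8.52 ± 1.48 RPKM, a ratio of 1.60 and a log2 fold change of 0.65 (SE 0.12, 95% interval 0.39 to 0.91, limma adjusted p = 0.000664). Within animals the change at oxLDL 60 was upward in 3 of 3 Apoe-/- replicates (1.01, 0.65 and 0.62 on the log2 scale) and in 3 of 3 DKO replicates (0.85, 0.76 and 0.34). An exact two-sided permutation test of 3 against 3 libraries gave p = 0.10 in each genotype, the smallest value that this design allows. Slc30a1 was 1 of 4 members called at oxLDL 60 in each genotype, against 13.9% of all genes called in Apoe-/- (7.13% called higher) and 12.2% in DKO (4.87% called higher). The oxLDL 60 and untreated libraries of DKO did not overlap for 1 of 4 members, Slc30a1, beside 42.6% of all genes. The summed macrophage markers also moved at oxLDL 60, from 1779 to 2286 RPKM untreated to 1624 to 1792 RPKM in Apoe-/- and from 1940 to 2218 RPKM to 1580 to 1648 RPKM in DKO. Their part in the rise of Slc30a1 was not tested.

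Most of the rise of Slc30a1 came between the low and the high amount. At oxLDL 10 its mean was 5.44 ± 0.65 RPKM in Apoe-/- and 5.85 ± 0.20 RPKM in DKO, against untreated cells a change of 0.12 (SE 0.12, limma adjusted p = 0.594) and of 0.13 (SE 0.12, limma adjusted p = 0.786) on the log2 scale. By limma 0 of 4 members were called at oxLDL 10 in either genotype, where 2.79% of all genes were called in Apoe-/- and 2.26% in DKO. At an unadjusted p under 0.05 the count was also 0 of 4 in the fit without the animal, beside 22.4% and 13.2% of all genes. The DKO libraries nevertheless did not overlap for Slc30a1, the only member of which this was true there, beside 18.9% of all genes without overlap. From oxLDL 10 to oxLDL 60 the log2 fold change was 0.64 (SE 0.12, limma adjusted p = 0.00168) in Apoe-/- and 0.52 (SE 0.12, limma adjusted p = 0.00783) in DKO. There Slc30a1 was again the only member called, beside 6.46% of all genes in Apoe-/- (2.91% higher) and 5.66% in DKO (1.92% higher), and the only one without overlap, beside 30.5% and 33.7%. The DKO call was lost without either of 2 libraries. The log2 fold change fell to 0.44 (limma adjusted p = 0.0441) without DKO oxLDL 60 replicate 1 and to 0.45 (limma adjusted p = 0.0453) without replicate 2, both short of the fold limit, and it was 0.67 without replicate 3.

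The genotypes were close for Slc30a1. DKO minus Apoe-/- was 0.10 untreated, 0.11 at oxLDL 10 and -0.01 at oxLDL 60 on the log2 scale (SE 0.12 each, limma adjusted p = 0.683, 0.776 and 0.989). The 95% interval at oxLDL 60 ran from -0.27 to 0.25. The interaction, that is, the DKO response minus the Apoe-/- response, was 0.01 at oxLDL 10 (95% interval -0.36 to 0.37) and -0.11 at oxLDL 60 (95% interval -0.48 to 0.25, limma adjusted p = 0.838). A response up to 0.48 smaller or 0.25 larger in DKO lay within that interval. Ordered by mean, untreated Apoe-/- cells were lowest, followed by untreated DKO, oxLDL 10 Apoe-/-, oxLDL 10 DKO, oxLDL 60 Apoe-/- and oxLDL 60 DKO. The libraries of neighbours in that order overlapped, except between oxLDL 10 DKO and oxLDL 60 Apoe-/-.

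Mt1 is the more abundant metallothionein, and its level was held within narrow limits. In Apoe-/- cells it was 86.3, 87.2 and 93.5 RPKM untreated, 113, 97.7 and 101 RPKM with oxLDL 10, and 118, 101 and 112 RPKM with oxLDL 60. All 6 treated libraries lay above all 3 untreated ones, and the 2 amounts of oxLDL overlapped. In DKO cells Mt1 was 106, 108 and 90.3 RPKM untreated, 118, 110 and 94.1 RPKM with oxLDL 10, and 123, 119 and 80.9 RPKM with oxLDL 60. These groups overlapped throughout, and replicate 3 was the lowest of its group at every treatment.

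The mean of Mt1 in Apoe-/- cells went from 89.0 ± 3.9 RPKM (SD, n = 3) to 104 ± 7.9 RPKM with oxLDL 10 and 110 ± 8.6 RPKM with oxLDL 60, ratios of 1.17 and 1.24. The log2 fold changes of 0.22 (SE 0.13, limma adjusted p = 0.330) and 0.30 (SE 0.13, 95% interval 0.03 to 0.58, limma adjusted p = 0.0911) did not pass the test. With the animal as a block the limma adjusted p was 0.0441 at oxLDL 10 and 0.00296 at oxLDL 60, and the fold changes, 1.17 and 1.23, stayed under the limit of 1.4. Groups did not overlap for 1 of 4 members at oxLDL 10 and 2 of 4 at oxLDL 60 in Apoe-/- cells, beside 20.5% and 40.7% of all genes. Within animals Mt1 was higher with oxLDL 10 than without in 6 of 6, by 0.03 to 0.39 on the log2 scale. With oxLDL 60 it was higher in 3 of 3 Apoe-/- animals (0.45, 0.21 and 0.26) and in 2 of 3 DKO animals (0.21, 0.13 and -0.16). In DKO cells the means were 102 ± 9.9 RPKM untreated, 107 ± 12.2 RPKM with oxLDL 10 and 108 ± 23.3 RPKM with oxLDL 60, and the log2 fold changes were 0.08 (SE 0.13, limma adjusted p = 0.918) and 0.06 (SE 0.13, limma adjusted p = 0.782).

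Between genotypes Mt1 differed by 0.19 untreated, 0.04 at oxLDL 10 and -0.05 at oxLDL 60 (DKO minus Apoe-/-, log2 scale, SE 0.13 each, limma adjusted p = 0.464, 0.926 and 0.937). Its interaction with oxLDL 60 was -0.24 (SE 0.18, 95% interval -0.63 to 0.15, limma adjusted p = 0.647), so the values in Apoe-/- and DKO cells, neither of which passed the test, were not shown to differ. With the animal as a block the SE of that interaction was 0.10 and its limma adjusted p 0.263. The interaction at oxLDL 10 was -0.14 (SE 0.18). By group mean the order ran from untreated Apoe-/- and untreated DKO cells through oxLDL 10 Apoe-/-, oxLDL 10 DKO and oxLDL 60 DKO to oxLDL 60 Apoe-/-, and the libraries of every neighbouring pair overlapped.

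Mt2, the second metallothionein, lies just upstream of Mt1 and was far less abundant. Its level in Apoe-/- cells was 7.49, 5.66 and 5.99 RPKM untreated, 8.76, 3.98 and 6.21 RPKM with oxLDL 10, and 5.14, 2.71 and 5.85 RPKM with oxLDL 60. In DKO cells it was 8.30, 9.02 and 5.45 RPKM untreated, 7.13, 6.12 and 5.13 RPKM with oxLDL 10, and 11.1, 9.59 and 3.17 RPKM with oxLDL 60. Every treatment overlapped the others in both genotypes, and the lowest library was the Xist-positive one in 6 of 6 groups. The spread in DKO cells with oxLDL 60 was 53.0% of the mean. The values rest on 68 to 256 reads per library, and 68 reads have a counting error of 12.1%, less than that spread.

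No change of Mt2 with oxLDL passed the test. In Apoe-/- cells the mean went from 6.38 ± 0.98 RPKM (SD, n = 3) to 6.32 ± 2.39 RPKM with oxLDL 10 and 4.57 ± 1.65 RPKM with oxLDL 60, log2 fold changes of -0.07 (SE 0.39, limma adjusted p = 0.944) and -0.53 (SE 0.39, limma adjusted p = 0.330). At oxLDL 60 it was lower within 3 of 3 animals, by -0.53, -1.03 and -0.03 on the log2 scale. With the animal as a block the limma adjusted p of this change was 0.0569, just short of the limit. In DKO cells the mean was 7.59 ± 1.89 RPKM untreated, 6.13 ± 1.00 RPKM with oxLDL 10 and 7.97 ± 4.22 RPKM with oxLDL 60, log2 fold changes of -0.29 (SE 0.39, limma adjusted p = 0.885) and -0.09 (SE 0.39, limma adjusted p = 0.904). The changes within DKO animals at oxLDL 60 pointed both ways, at 0.42, 0.09 and -0.76. In the fit without the animal the 95% intervals at oxLDL 60 were -1.36 to 0.29 in Apoe-/- and -0.91 to 0.74 in DKO. The rise of Slc30a1 in the same cells, 0.76 and 0.65, lay outside the first and inside the second. Those Slc30a1 values have an SE of 0.12 themselves, and a difference between the responses of Slc30a1 and Mt2 was not tested. With the animal as a block the SE of Mt2 fell from 0.39 to 0.21 in both genotypes. Intervals of that fit were not computed, so the comparison with Slc30a1 holds only for the fit without the animal. Without Apoe-/- oxLDL 60 replicate 2, the Xist-positive library, the change of -0.53 shrank to -0.20, and leaving out any other library of that comparison gave -0.74 to -0.41. By group mean the order ran from oxLDL 60 Apoe-/- through oxLDL 10 DKO, oxLDL 10 Apoe-/-, untreated Apoe-/- and untreated DKO to oxLDL 60 DKO, with overlap between all neighbours.

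At oxLDL 60 the mean of Mt2 was 1.74 times as high in DKO as in Apoe-/- cells, with overlapping libraries. On the log2 scale this was 0.67 (SE 0.39, limma adjusted p = 0.689). Leaving out 1 library moved the value from 0.34 (without DKO oxLDL 60 replicate 1, and the same without Apoe-/- oxLDL 60 replicate 2) to 1.23 (without DKO oxLDL 60 replicate 3), and it was 0.45 without DKO oxLDL 60 replicate 2, in no case called. With all Xist-positive libraries left out, 2 libraries per group remained, and Mt2 was called higher in DKO at oxLDL 60 by 0.90 (limma adjusted p = 0.0141) and higher at oxLDL 60 than at oxLDL 10 within DKO by 0.64 (limma adjusted p = 0.0137). Keeping all libraries and adding Xist status to the model left the genotype difference at 0.67, with a limma adjusted p of 0.221. Untreated and at oxLDL 10 the genotype difference of Mt2 was 0.23 and 0.01 (SE 0.39 each, limma adjusted p = 0.787 and 0.993). The interaction with oxLDL 60 was 0.45 (SE 0.55, 95% interval -0.71 to 1.61, limma adjusted p = 0.786). It was 0.12 without Apoe-/- oxLDL 60 replicate 2 or DKO oxLDL 60 replicate 1, 0.22 and 0.23 without DKO oxLDL 60 replicate 2 or DKO untreated replicate 3, and 1.00 without DKO oxLDL 60 replicate 3, with 0.33 to 0.66 without any other library, and it was not called in any of these.

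The levels of the members were also set against Xist status. For Mt2 the 6 Xist-positive libraries lay at 2.71 to 5.66 RPKM and the other 12 at 5.14 to 11.1 RPKM. Mt1 was lowest in the Xist-positive library in 5 of 6 groups, with 80.9 to 101 RPKM against 86.3 to 123 RPKM, and Mtf1 likewise in 5 of 6. Slc30a1 was lowest there in 1 of 6 groups and highest in 2. Since 1 animal per genotype was involved, these are values of 2 animals, and no test was made.

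**Figure D2:**
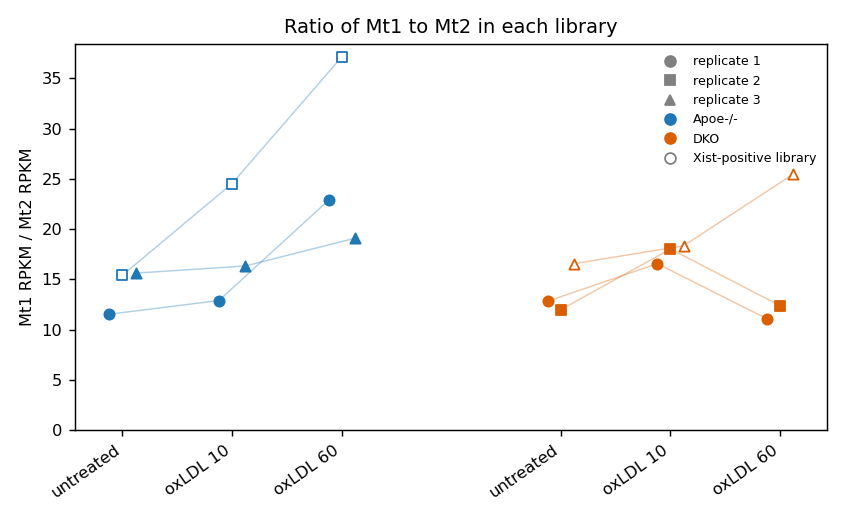
Ratio of the Mt1 level to the Mt2 level (RPKM over RPKM, linear axis from 0) in each of the 18 libraries, by genotype and treatment. Symbols mark replicates, lines join libraries of 1 animal and open symbols are Xist-positive libraries, of which Apoe-/- oxLDL 60 replicate 2 has the highest ratio, 37.1.

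RPKM are scaled to length, so the levels of both metallothioneins can be set side by side. The ratio of Mt1 to Mt2 had a median of 16.4 and ran from 11.1 in DKO oxLDL 60 replicate 1 to 37.1 in Apoe-/- oxLDL 60 replicate 2. In Apoe-/- cells the ratio was 11.5, 15.4 and 15.6 untreated, 12.9, 24.5 and 16.3 with oxLDL 10, and 22.9, 37.1 and 19.1 with oxLDL 60. The oxLDL 60 ratios of that genotype lay above its untreated ones without overlap. In DKO cells it was 12.8, 12.0 and 16.6 untreated, 16.6, 18.0 and 18.3 with oxLDL 10, and 11.1, 12.4 and 25.5 with oxLDL 60, where the treatments overlapped. The coding sequences of Mt1 and Mt2 are 186 bases each and 79.6% identical, and the longest run that their transcripts share is 20 bases, shorter than the read lengths given in the labels.

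Mtf1, the factor, was the steadiest of the 4 genes. Its level in Apoe-/- cells was 2.78, 3.18 and 2.87 RPKM untreated, 3.24, 2.81 and 2.97 RPKM with oxLDL 10, and 3.19, 3.13 and 3.16 RPKM with oxLDL 60. In DKO cells it was 3.51, 3.44 and 3.00 RPKM untreated, 3.27, 3.49 and 2.91 RPKM with oxLDL 10, and 3.55, 3.47 and 2.98 RPKM with oxLDL 60. All groups overlapped, and the Xist-positive replicate 3 was the lowest in each DKO group.

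Log2 fold changes of Mtf1 with oxLDL 60 were 0.10 in Apoe-/- (SE 0.09, 95% interval -0.10 to 0.30, limma adjusted p = 0.459) and 0.01 in DKO (SE 0.09, 95% interval -0.19 to 0.20, limma adjusted p = 0.969). Those with oxLDL 10 were 0.03 and -0.04 (SE 0.09 each, limma adjusted p = 0.899 and 0.947). A change of 1.4-fold in either direction lay outside each of the intervals at oxLDL 60. DKO minus Apoe-/- was 0.16 untreated, 0.09 at oxLDL 10 and 0.07 at oxLDL 60 (SE 0.09 each, limma adjusted p = 0.368, 0.743 and 0.867). The mean was 2.94 ± 0.21 RPKM (SD, n = 3) in untreated Apoe-/- cells, the lowest group, and 3.33 ± 0.31 RPKM in DKO cells with oxLDL 60, the highest, and neighbours in the order of means overlapped. The transcript level does not measure the activity of the factor, which is set by zinc.

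**Figure D3:**
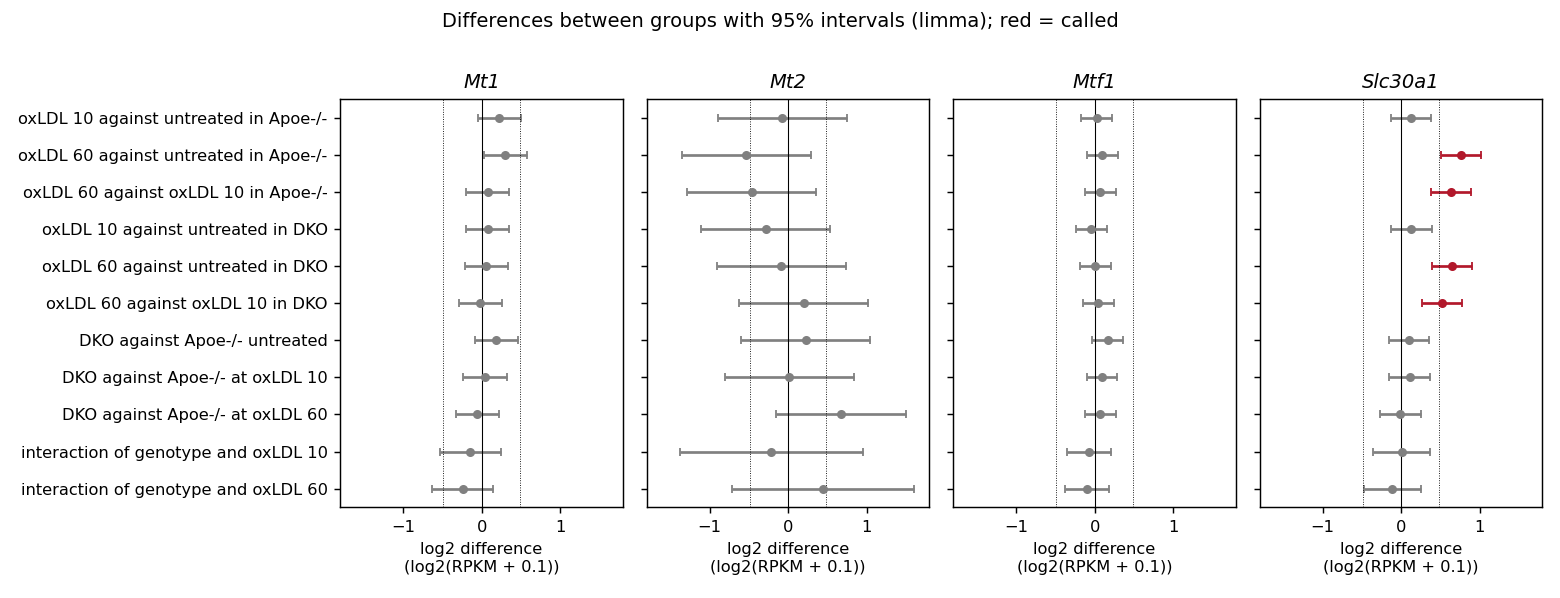
Log2 differences (scale of log2(RPKM + 0.1)) of the 4 genes in each of 11 comparisons, with 95% intervals from limma. The solid line is 0, dotted lines mark a fold change of 1.4 either way, and red marks called differences, which are the 4 of Slc30a1 between oxLDL 60 and the lower amounts.

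Between the genotypes 0 of 4 members were called by limma at any treatment, and 0 of 4 had groups without overlap, beside 19.6%, 12.1% and 16.5% of all genes untreated, at oxLDL 10 and at oxLDL 60. The share of all genes called was 0.21% untreated, 0.0857% at oxLDL 10 and 0.125% at oxLDL 60, so that few genes of any kind were called in this fit. The paper, which used DESeq2, reported many more genes differing between the genotypes at the high amount of oxLDL. At an unadjusted p under 0.05 the members' count was 0 of 4 throughout, beside 17.3%, 9.75% and 7.88% of all genes. For the interactions 0 of 4 were called by limma, where 0% of all genes were called for oxLDL 10 and 0.0156% for oxLDL 60. At an unadjusted p under 0.05 their count was 0 of 4 in the fit without the animal, where the shares were 1.92% and 9.78%. Unadjusted p with the animal as a block were not counted. The comparisons of both amounts of oxLDL with untreated cells share their control libraries within a genotype.

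The other zinc transporters were then described. The ZnT family (Slc30a genes) moves zinc out of the cytosol, into vesicles, Golgi or the medium, and the ZIP family (Slc39a genes) moves it in. Of 10 ZnT genes looked for, 6 could be tested, and Slc30a1 was the only one called at oxLDL 60 in either genotype. Over all genes, 7.13% were called higher in Apoe-/- and 4.87% in DKO. Slc30a4, Slc30a5, Slc30a6, Slc30a7 and Slc30a9 had log2 fold changes between -0.01 and 0.20 in Apoe-/- cells and between -0.16 and 0.03 in DKO cells. Slc30a5, which with Slc30a6 loads zinc into the early secretory pathway, averaged 30.4 RPKM, the highest of the family. The median of the 6 was 0.10 in Apoe-/- and 0.01 in DKO, beside 0.06 and -0.06 over all genes tested.

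**Figure D4:**
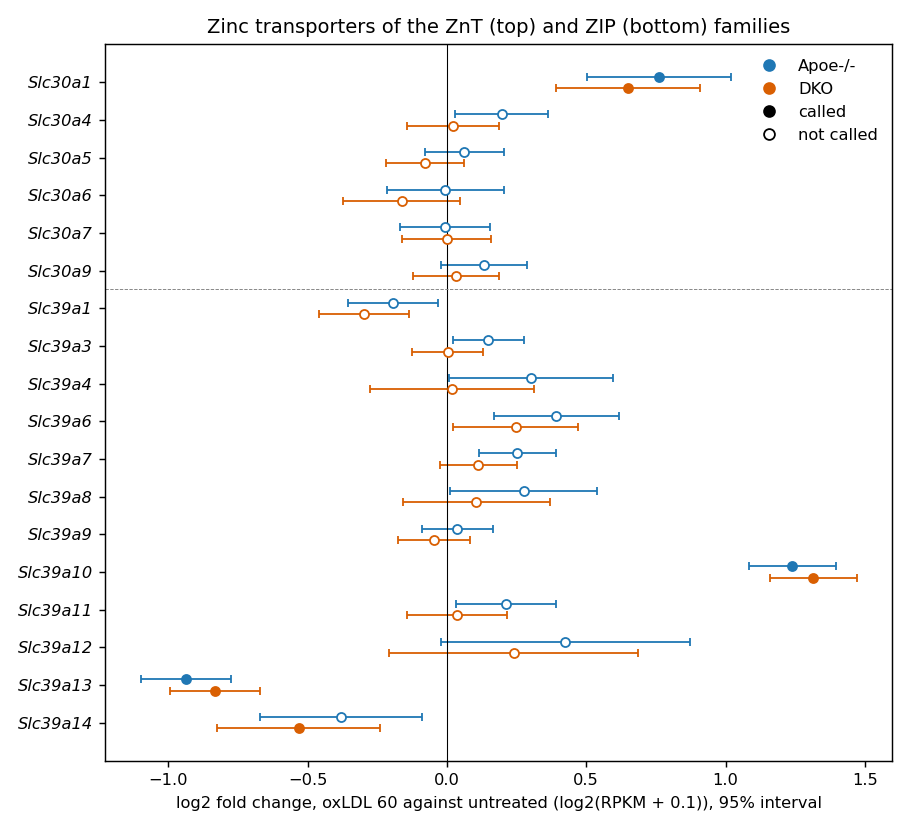
Log2 fold change of each tested zinc transporter between oxLDL 60 and untreated cells (scale of log2(RPKM + 0.1)), with 95% intervals from limma, ZnT genes above the dashed line and ZIP genes below it, blue for Apoe-/- and orange for DKO. Filled symbols are called genes: Slc30a1 and Slc39a10 are higher and Slc39a13 is lower in both genotypes, and Slc39a14 is filled in DKO.

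Of 14 ZIP genes, 12 could be tested, and 1 was called higher and 1 lower at oxLDL 60 in Apoe-/-, against 1 higher and 2 lower in DKO. Beside them, 7.13% of all genes were called higher and 6.78% lower in Apoe-/-, and 4.87% and 7.31% in DKO. Counts this small describe single genes and not the family. Slc39a10 encodes a zinc importer of the plasma membrane whose gene MTF1 is known to repress. Its mean went from 6.22 ± 0.70 to 14.8 ± 0.92 RPKM (SD, n = 3) in Apoe-/- and from 5.83 ± 0.28 to 14.7 ± 0.45 RPKM in DKO, log2 fold changes of 1.24 and 1.32 (SE 0.07 each, limma adjusted p = 2.12e-09 and 1.9e-09). Slc39a10 was also called between oxLDL 10 and oxLDL 60 in both genotypes (0.81 and 0.85). At oxLDL 10 it was higher than in untreated cells by 0.43 and 0.47 (limma adjusted p = 0.00208 and 0.0015), past the p limit and short of the fold limit, unlike Slc30a1, which did not pass the p limit there. Slc39a13, an importer into the cytosol from intracellular stores, fell from 13.4 ± 0.99 to 6.96 ± 0.65 RPKM in Apoe-/- and from 13.3 ± 0.96 to 7.42 ± 0.33 RPKM in DKO, log2 fold changes of -0.94 and -0.83 (SE 0.08 each, limma adjusted p = 7.65e-08 and 3.44e-07). Slc39a14, which carries zinc, iron and manganese into cells, was called lower in DKO (-0.53, SE 0.14, limma adjusted p = 0.00818), and its value in Apoe-/- was -0.38 (limma adjusted p = 0.0458), under the fold limit. Slc39a13 at oxLDL 10 was at -0.41 and -0.42 (limma adjusted p = 0.00366 and 0.00389), also past the p limit and short of the fold limit. With both limits no zinc transporter of either family was called at oxLDL 10 or between the genotypes.

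Genes known as further MTF1 targets were listed next. Of 6 such genes, 4 were called higher at oxLDL 60 in both genotypes and 0 lower, and 2 were called higher at oxLDL 10. Over all genes, 7.13% were called higher at oxLDL 60 in Apoe-/- and 4.87% in DKO, and 0.748% and 0.569% at oxLDL 10. This list and the others here, those of zinc transporters included, were chosen with earlier results of these data known. Such counts beside all genes are therefore descriptive and no test of enrichment. Gclc, the catalytic subunit of the enzyme that starts glutathione synthesis, rose by 1.94 and 1.73 on the log2 scale at oxLDL 60 (SE 0.08 each) in Apoe-/- and DKO. Slc40a1, the iron exporter ferroportin, rose by 2.22 and 2.98 (SE 0.15 each), and Ndrg1, a stress-responsive gene, by 0.55 and 0.59 (SE 0.11 each). The remaining called gene was Slc39a10, which MTF1 is known to repress, so the 4 are not all genes that it induces. Selenow and Csrp1 were not called, at 0.19 and 0.12 in Apoe-/- and -0.17 and -0.04 in DKO. Gclc, Slc39a10 and Slc40a1 were also called higher at oxLDL 60 than at oxLDL 10 in both genotypes. Slc40a1 was the only gene of these lists called between the genotypes, higher in DKO by 1.98 untreated, 2.55 at oxLDL 10 and 2.74 at oxLDL 60 (SE 0.15 each), where the members showed no called difference.

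Genes of copper handling were listed because metallothioneins also bind copper. Of 9, 8 could be tested, and 2 were called lower at oxLDL 60 in both genotypes, with none higher. Over all genes, 6.78% were called lower in Apoe-/- and 7.31% in DKO. Slc31a1, the main copper importer, had log2 fold changes of -0.60 in Apoe-/- and -0.62 in DKO (SE 0.09 each), and Slc31a2, a related transporter of endosomes and lysosomes, of -1.16 and -1.02 (SE 0.12 each). Slc31a2 was also called lower at oxLDL 10, at -0.53 and -0.61. The exporter Atp7a was not called (-0.13 and -0.20 at oxLDL 60).

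Targets of NRF2, the oxidant-sensing factor, were called higher at oxLDL 60 for 8 of 8 genes in both genotypes, with a median log2 fold change of 2.07 in Apoe-/- and 1.85 in DKO, and in 7 of 8 at oxLDL 10. Hmox1, heme oxygenase 1, went from 523 to 2504 RPKM in Apoe-/- and from 562 to 2481 RPKM in DKO at oxLDL 60, and Gclm and Srxn1 rose likewise, by 1.73 and 2.52 on the log2 scale in Apoe-/-. Gclc stands in this list and in that of MTF1 targets, and this list too was chosen with earlier results known. Over all genes, 7.13% were called higher at oxLDL 60 in Apoe-/- and 4.87% in DKO, and 0.748% and 0.569% at oxLDL 10. Glucocorticoids are a further known inducer of metallothioneins, and of 7 glucocorticoid targets 1 was called higher at oxLDL 60 in Apoe-/- and 2 in DKO. These counts stand beside the same 7.13% and 4.87% of all genes. Klf9 rose by 1.03 and 1.26 (SE 0.17 each), and Zbtb16, at no more than 0.168 RPKM in any library, was called in DKO at 0.58 (SE 0.18). Tsc22d3, Fkbp5, Per1, Dusp1 and Sgk1 were not called. Mt3, the metallothionein known from brain, gave 1 to 3 reads in 8 libraries and was listed at 0 in the other 10, too low to test. Mt4 was looked for and not found among the deposited symbols.

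The genes most like each member were taken by Pearson correlation of log2(RPKM + 0.1) over the 18 libraries, among 10101 genes with a mean of at least 1 RPKM. The 18 points share 6 groups and 6 animals, so the coefficients describe these libraries and carry no test. For Slc30a1 the closest were Bach1 (r = 0.97), which encodes a heme-sensing repressor, Ppp1r15a (0.97), a regulatory subunit of the phosphatase that acts on eIF2 alpha, Ypel5 (0.96), S1pr2 (0.96), a sphingosine 1-phosphate receptor, and Zscan29 (0.95). For Mt1 they were Trmt10b (0.93), Nup88 (0.90), Coq7 (0.90), Scyl2 (0.89) and Fbxw8 (0.89). For Mt2 they were Clasp1, Atp10a, Cldnd1, Olfml2b and Zc3h13 (0.81 to 0.85), and for Mtf1 they were Snx18, Ppfia1, Rabgef1, Itpripl2 and Entr1 (0.89 to 0.90). No member was among the 5 genes closest to another. Between members r was 0.55 for Mt1 and Mt2, 0.73 for Mt1 and Mtf1, 0.56 for Mt2 and Mtf1, 0.50 for Mt1 and Slc30a1, 0.39 for Mtf1 and Slc30a1, and -0.12 for Mt2 and Slc30a1.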

How the data were processed

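RNA of 18 BMDM libraries (2 genotypes, 3 treatments, 3 replicates) was sequenced. The authors' methods name stranded libraries with poly(A) selection. Per the submitters' processing notes, the authors aligned the reads with STAR to mm10 and deposited 1 table of RPKM for 18668 symbols. The version and the annotation are not given in the sources used here. RPKM are relative to all reads of a library, so that very abundant RNAs lower the other values. The authors used DESeq2 on counts for their own lists. The deposited unit is RPKM, so values were analysed as log2(RPKM + 0.1) in R 4.3.3 with limma 3.58.1 (lmFit and trended eBayes). A gene entered the test if 3 or more libraries reached 0.1 RPKM, 1 mean was fitted for each of the 6 groups over all libraries, and Benjamini-Hochberg adjustment was made per comparison. The limits of 0.05 and 1.4-fold follow the study. The fit was tested on simulated data in which each library varied independently. That simulation held no shared variation of libraries from the same animal, so it does not cover this dependence. A pseudocount understates the changes of low genes.

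Groups and replicate numbers came from the labels. Same-numbered libraries of a genotype deviated together from their group means (r 0.183 to 0.695 over 18 pairs, against a median of -0.347 for other numbers), so the numbers were taken to mark animals. Deviations within a group cancel out, so positive values for same numbers force negative ones for other numbers, which are not separate evidence. Across genotypes same-numbered libraries had a median r of -0.168. The animal was fitted as a block in an alternative, fixed for oxLDL and random for genotype. No 2 libraries were identical. Other alternatives were a pseudocount of 1, a fit of only the groups compared, median ratio scaling, no filter on low values, no fold limit, Xist status as a term or left out, and leaving out each library.

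Depth came from the steps of 1 read in the RPKM of 874 low genes with 1 annotated transcript, of which 79.1% gave whole reads within 0.05 in every library. Of those with whole reads, 52.1% gave a depth within 0.3 M reads of the commonest value, on which the depths rest. Read numbers could be recovered for Mt1 (2034 to 3455 reads, a counting error of at most 2.22%) and Mt2, and not for Mtf1 and Slc30a1. Counting errors cover counting only, since reads copied by PCR are not independent. Gene coordinates are from GENCODE M21 and promoter windows from RefSeq, both on GRCm38, which is mm10. The 24 symbols that a spreadsheet had turned into dates were kept as separate genes. The rule for named genes took the 4 members, the genes of fixed lists that were called, Treml4, Apoe and Xist as checks, and the 5 genes most like each member. Genes of the lists that were not called, some cell type markers and Mt3 are named as well, chosen after their values were seen. Mt4 is named as a gene without values. The members and lists were chosen with earlier results of these data known. Depth, sequences and plots were computed in Python 3.11.15 (pandas 2.3.3, matplotlib 3.10.9).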

Additional observations from a re-analysis of the deposited data

How the results depend on the processing

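Slc30a1 kept its call between oxLDL 60 and untreated cells under all 14 alternatives in each genotype (log2 fold change 0.63 to 0.83 in Apoe-/- and 0.57 to 0.81 in DKO), and its call between oxLDL 60 and oxLDL 10 in Apoe-/- under all 14 (0.56 to 0.73). Over the 4 genes and 11 comparisons, 606 of 664 alternative values kept their direction and their side of the threshold, 53 reversed, 3 were no longer called and 2 became called. Several alternatives leave the value itself unchanged: no filter, only the groups compared, the animal as a block, Xist status as a term, and no fold limit. These could not reverse a direction, and dropping the fold limit could not lose a call, so the count overstates how much was put to the test. With the replicate block (animal) no call of a member changed, and Slc30a1 at oxLDL 60 had a limma adjusted p of 1.99e-05 in Apoe-/- and 0.000116 in DKO. The number of members called between oxLDL 60 and oxLDL 10 in DKO, 1, became 0 with a pseudocount of 1 (Slc30a1 0.46), 2 without Xist-positive libraries (Mt2 added) and 0 to 1 when 1 library was left out. The number called between genotypes at oxLDL 60, 0, became 1 without Xist-positive libraries (Mt2). The cause was not tested.

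All reversals were of values not called, and the cause was not tested. Median ratio scaling shifted the median of all genes in the oxLDL 60 interaction by 0.12, the one shift over 0.1. It reversed Mtf1 at oxLDL 10 in Apoe-/- (-0.031), Mt1 between oxLDL 60 and oxLDL 10 in DKO (0.066), Mt1 (-0.014) and Mt2 (-0.042) between genotypes at oxLDL 10, Slc30a1 between genotypes at oxLDL 60 (0.015), and the oxLDL 60 interactions of Mtf1 (0.029) and Slc30a1 (0.012). Leaving out the Xist-positive libraries reversed Mt2 at oxLDL 10 in Apoe-/- (0.14), Mt2 at oxLDL 60 in DKO (0.25), Mt1 between oxLDL 60 and oxLDL 10 in DKO (0.0845), Mt2 between genotypes at oxLDL 10 (-0.16), and Mt1 (0.078) and Slc30a1 (0.15) between genotypes at oxLDL 60.

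Leaving out 1 library at a time gave these ranges where the sign turned. At oxLDL 10 in Apoe-/-, Mt2 ran from -0.34 to 0.22, Mtf1 from -0.024 to 0.084 and Slc30a1 from -0.011 to 0.19. At oxLDL 10 in DKO, Mt1 ran from -0.0046 to 0.17 and Mtf1 from -0.11 to 0.029. At oxLDL 60 in DKO, Mt1 ran from -0.048 to 0.26, Mt2 from -0.42 to 0.47 and Mtf1 from -0.062 to 0.084. Between oxLDL 60 and oxLDL 10 in DKO, Mt1 ran from -0.13 to 0.18, Mt2 from -0.13 to 0.76 and Mtf1 from -0.022 to 0.12. Between genotypes, Slc30a1 ran from -0.033 to 0.17 untreated, Mt1 from -0.028 to 0.14 and Mt2 from -0.28 to 0.28 at oxLDL 10, and Mt1 from -0.16 to 0.14 and Slc30a1 from -0.0895 to 0.14 at oxLDL 60. The interactions ran from -0.50 to 0.055 for Mt2 and -0.063 to 0.14 for Slc30a1 at oxLDL 10, and from -0.19 to 0.041 for Slc30a1 at oxLDL 60. Among values that kept their sign and were not called, Mt2 ran from -0.50 to -0.15 at oxLDL 10 in DKO and from 0.087 to 0.45 between genotypes untreated, and the Mt1 interactions ran from -0.23 to -0.052 at oxLDL 10 and from -0.35 to -0.047 at oxLDL 60, the last without DKO oxLDL 60 replicate 3.

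Over all genes, the count called at oxLDL 60 was 1786 in Apoe-/- (1225 to 3873 over the alternatives) and 1564 in DKO (1087 to 3319). At oxLDL 10 it was 358 (253 to 904) and 290 (185 to 510), and between oxLDL 60 and oxLDL 10 it was 829 (579 to 1731) and 726 (498 to 2000). Between genotypes it was 27 untreated (12 to 308), 11 at oxLDL 10 (4 to 110) and 16 at oxLDL 60 (3 to 74), and for the interaction with oxLDL 60 it was 2 (0 to 5). Depth limits Mt2 more than Mt1, and for Mtf1 and Slc30a1 the number of reads is unknown.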
